A study of Mus musculus with 27 samples.

Results

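Mff knockout clone gs1_B4 was compared with its parental line in 4T1 cells, a mouse mammary carcinoma line that metastasizes readily. The members were 6 of the 27 libraries of the study, 3 of gs1_B4 and 3 of the parental cells, and they were chosen by the clone code or the parental name in the column headings. The whole study holds CRISPR-Cas9 clones that lack Drp1, Fis1 or Mff, the untreated parental cells, and parental cells given leflunomide or DMSO. Polyadenylated RNA was sequenced from every library. The groups used here are gs1_B4 (genotype Mff KO, untreated, 3 libraries), gs1_C8, the other clone with that genotype (untreated, 3 libraries), and parental 4T1 (genotype WT, untreated, 3 libraries). Both Mff clone codes begin with gs1. Each code is 1 clone, so an effect of the knockout and a difference that the founding cell already carried cannot be told apart in gs1_B4 alone.

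Mitochondria are dynamic organelles that fuse and divide. Division is carried out by the GTPase Drp1 (gene Dnm1l), which is recruited from the cytosol by receptors in the outer mitochondrial membrane. Mff is one of these receptors, it also serves peroxisomes, and without it mitochondria are typically long and connected.

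Library totals were 24399733 to 26900488 counts in gs1_B4, 21874493 to 25935010 in gs1_C8 and 20715428 to 24753800 in parental cells. Ribosomal RNA genes took 2.43% to 3.86% of counts in gs1_B4 and 2.16% to 2.65% in parental cells. Pearson correlations of log CPM (counts scaled to each library's size) over 13940 genes were 0.988 to 0.991 within gs1_B4, 0.968 to 0.972 between gs1_B4 and parental cells, and 0.947 to 0.953 between gs1_B4 and gs1_C8. Of 7 markers of 4T1 carcinoma cells, all tested, 4 were lower and 1 higher in gs1_B4 (median log2 fold change -0.33, against 26.8% lower and 20.9% higher over all genes). The lower ones were Krt14 (-2.85), Krt19 (-0.63), Cdh1 (-0.62) and Krt7 (-0.33), and the higher one was Krt18 (0.23). The other 2 did not pass the test. Krt8 stood at 675 to 887 CPM in gs1_B4 and 703 to 757 CPM in parental cells, and Epcam at 162 to 179 CPM in gs1_B4 and 175 to 191 CPM in parental cells. Of 8 leukocyte markers 3 had 0 counts in all 6 libraries, and the 8 together summed to 8.31 to 10.2 CPM in gs1_B4 and 8.66 to 9.12 CPM in parental cells. The 2 that were tested moved in opposite directions, as Cd68 rose (log2 0.93) and Csf1r fell (-2.50) in gs1_B4. The labels do not state whether the replicates came from separate cultures, and the p-values therefore cover no more than the spread among these libraries, which may be technical.

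The first question was whether the targeted transcript was lower. Mff (ENSMUSG00000026150.14, GRCm38 chromosome 1, 82724890 to 82752394) stood at 47.6, 46.9 and 45 CPM in gs1_B4, at 41.0, 41.0 and 45.3 CPM in gs1_C8, and at 80.7, 84.4 and 91.4 CPM in parental cells. All 3 libraries of gs1_B4 were below all parental libraries, as for 28.3% of all genes tested, and kept 54.4% of the parental mean. The log2 fold change was -0.88 ± 0.06 (SE, n = 3 each; adjusted p = 2.3e-10, edgeR quasi-likelihood test with Benjamini-Hochberg adjustment over all 13940 genes, as for every adjusted p below). The levels of Mff in the clones differed by a log2 0.13 (gs1_B4 over gs1_C8, adjusted p = 0.062), which misses the threshold of 0.05. Counts are per gene, so the remaining RNA does not show whether the reading frame was broken, and protein was not analysed here.

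Among the other fission and fusion genes, the transcripts of Dnm1l, Mief1, Mief2 and Opa1 changed little, while those of Mfn1, Marchf5 and Akap1 fell. Dnm1l stood at 212, 228 and 233 CPM in gs1_B4 and at 220.0, 217 and 226 CPM in parental cells, and the groups overlapped (log2 0.02 ± 0.05, adjusted p = 0.74). The Drp1 receptors Mief1 (log2 0.03 ± 0.08, adjusted p = 0.82) and Mief2 (0.11 ± 0.13, adjusted p = 0.51) did not pass the test, nor did Opa1, the inner membrane fusion GTPase (-0.07 ± 0.04, adjusted p = 0.16). Mfn1, an outer membrane fusion GTPase, fell to 62.3, 66.0 and 67.4 CPM in gs1_B4, against 74.7, 77.7 and 78.2 CPM in parental cells (log2 -0.24 ± 0.04, adjusted p = 6.7e-05). Marchf5, a ubiquitin ligase of the outer membrane, fell to 97.6, 95.3 and 96.7 CPM in gs1_B4, against 138, 136 and 137 CPM in parental cells (log2 -0.50 ± 0.04, adjusted p = 2.6e-09). Akap1, which anchors protein kinase A on mitochondria, fell by 0.55 ± 0.05 on the log2 scale (adjusted p = 1.5e-08). Both were also lower in gs1_B4 than in gs1_C8, Marchf5 by -0.39 (adjusted p = 5.3e-08) and Akap1 by -0.45 (adjusted p = 1.6e-07).

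Fis1, a tail-anchored protein of the outer membrane, stood at 62.2, 53 and 49.2 CPM in gs1_B4 and at 44.6, 45.5 and 52.5 CPM in parental cells, with overlapping groups (log2 0.20 ± 0.08, adjusted p = 0.047). Its adjusted p was 0.31, 0.058, 0.12 and 0.11 without gs1_B4 replicate 1, gs1_B4 replicate 2, parental replicate 1 and parental replicate 2. Mfn2, the partner of Mfn1, stood at 56.9, 51.8 and 54.9 CPM in gs1_B4, at 76.6, 73.4 and 72.1 CPM in gs1_C8, and at 65.1, 63.4 and 55.8 CPM in parental cells. Against parental cells its log2 fold change was -0.17 ± 0.06 (adjusted p = 0.019), a call lost without gs1_B4 replicate 2 (adjusted p = 0.094), parental replicate 1 (0.21) or parental replicate 2 (0.16). Against gs1_C8 the difference was -0.44 (adjusted p = 1.6e-06), and the groups did not overlap.

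Across all genes, 2916 rose and 3731 fell in gs1_B4, 47.7% of the 13940 tested, of which 20.9% were higher and 26.8% lower. The median log2 fold change of all genes was -0.02. Most changes were small: 490 genes rose and 594 fell when the test asked for a change beyond 1.5-fold. In the direct comparison of gs1_B4 with gs1_C8, 3684 genes were higher and 3942 lower in gs1_B4, 54.7% of those tested. The difference is between the clones, but the parental libraries were in the same model and entered its filter, scaling and estimate of spread. With only the groups compared, 3281 genes were higher and 3410 lower in gs1_B4. In gs1_C8 46.7% of genes were called against the parental libraries. With the X chromosome set aside, 46.8% of the other 13519 genes were called in gs1_B4.

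The genes that moved were unevenly spread over the genome, and the X chromosome stood apart. Of 421 X-linked genes tested 298 fell and 16 rose in gs1_B4, or 70.8% and 3.80%, against 26.8% lower and 20.9% higher over all genes. The median log2 fold change of the X chromosome was -0.72 in gs1_B4. In single libraries, as log2 ratios to the parental mean with 0.5 CPM added, the X median was -0.67, -0.66 and -0.61 in gs1_B4, -0.08, -0.11 and -0.03 in gs1_C8, and -0.0053, -0.0012 and 0.0064 in parental cells. X-linked genes supplied 2.31% ± 0.019 of counts in gs1_B4, 3.32% ± 0.0060 in gs1_C8 and 3.46% ± 0.029 in parental cells (SD, n = 3 each). The lowered genes ran along the whole chromosome, with medians of -0.48 to -0.79 over 8 consecutive segments of 52 or 53 genes. In the other knockout clones the X median against the same parental libraries was -0.73 in Fis1 clone gs1_B11, -0.50 in Drp1 clone gs2_B4, -0.23 in Drp1 clone gs1B8, -0.09 in Mff clone gs1_C8 and 0.04 in Fis1 clone gs2_F6, so a low X was not limited to gs1_B4.

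**Figure D1:**
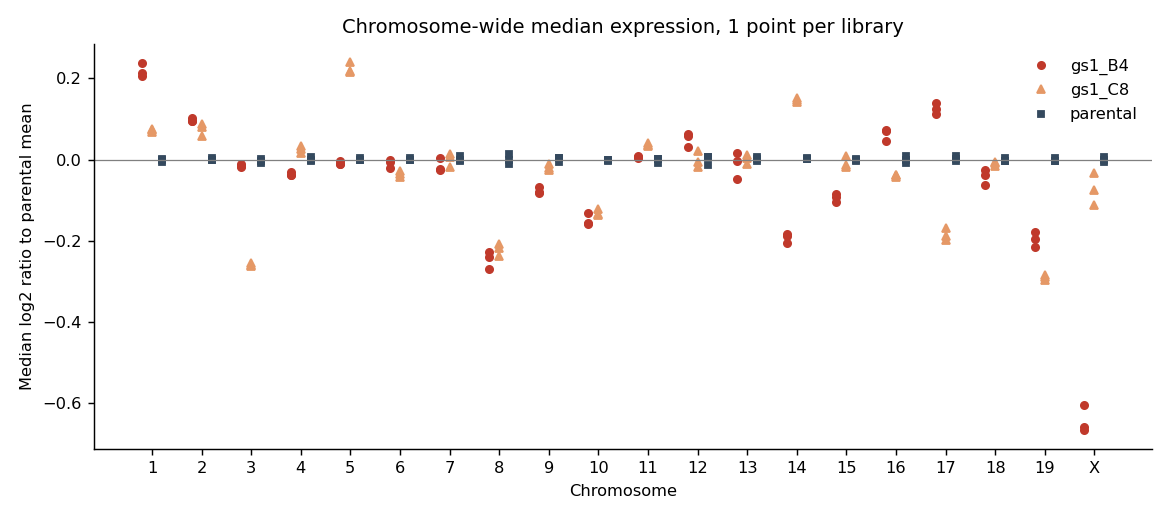
Median log2 ratio to the parental mean over the genes of each chromosome (vertical axis) in each library of gs1_B4, gs1_C8 and parental cells (points). The X chromosome lies between -0.67 and -0.61 in gs1_B4, chromosomes 14 and 17 have opposite signs in gs1_B4 and gs1_C8, and parental libraries lie near 0.

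Smaller shifts covered whole autosomes. Chromosome 1, which carries Mff itself, had a median of 0.24 in gs1_B4 (411 of 851 genes higher, 53 lower), and each of its 8 segments was above 0, from 0.14 to 0.31. Named genes there include Fn1, F11r, Prim2, Selp, Pex19, Sdhc and Cox5b, which rose, and Pkp1, which fell. Chromosome 8 had a median of -0.26 in gs1_B4 (397 of 735 genes lower, 44 higher) and lay between -0.24 and -0.57 in the other 5 clones. It carries, among named genes, Cdh1, Esrp2, Slc7a5, Mcm5 and Mmp15, which fell, and Adam9, Mt2, Nrg1 and Podnl1, which rose. Chromosome 14 had a median of -0.22 in gs1_B4 (234 of 500 genes lower), and medians of 0.15 to 0.26 in the other 5 clones. In the direct comparison with gs1_C8, 320 of the 500 genes were lower in gs1_B4 and 40 higher. Chromosome 17 had a median of 0.13 in gs1_B4 and -0.20 in gs1_C8, with 410 of 686 genes higher in gs1_B4 than in gs1_C8 and 63 lower. Chromosome 19 had a median of -0.21 in gs1_B4 (236 of 478 genes lower, 43 higher) and -0.31 in gs1_C8. Among genes named in this report, Marchf5, Twnk, Pprc1, Pgam1, Aldh18a1, Kif11 and Nolc1, which fell, and Ifit1, which rose, lie there. Chromosome 10 had a median of -0.16 in gs1_B4 (280 of 645 genes lower, 82 higher) and -0.14 in gs1_C8. It carries Ddx21, Tnfaip3, Itgb2 and Erbb3, which fell, and Ddit3, Il23a, Akap12 and Fstl3, which rose. DNA copy number was not measured, and its part in these shifts was not tested.

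On chromosome 15, where 191 of 540 genes fell and 81 rose, the lowest medians were gathered in 1 long run. Lowered genes also lay elsewhere on the chromosome, as between 8 and 12 Mb, where 13 of 16 fell with a median of -0.30. In bins of 4 Mb the first run took the bins from 56 to 72 Mb, whose medians of -0.86 to -1.22 were among the 9 lowest of 584 bins in the genome. The 26 lowest bins were all on X (22) or in this run (4), and the lowest elsewhere was at -0.55. Of 50 genes tested between 56 and 72 Mb 37 fell and 2 rose, 74.0% lower, with a median of -0.94. The other 490 genes of the chromosome had a median of -0.07 and 31.4% lower. In single libraries, on the scale with 0.5 CPM added, the median between 56 and 72 Mb was -0.66, -0.76 and -0.75 in gs1_B4, 0.03, 0.04 and 0.05 in gs1_C8, and -0.0094, -0.0053 and 0.012 in parental cells. The other 5 clones had medians between -0.12 and 0.12 there. Against gs1_C8, 35 of the 50 genes were lower in gs1_B4 and 4 higher. The run was marked out after the values were seen, so its median is a description.

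The best known gene of that run is Myc, a transcription factor that drives growth and proliferation (chromosome 15, 61985391 to 61990374). Myc fell to 107, 110.5 and 122 CPM in gs1_B4, against 208, 210.5 and 219 CPM in parental cells (log2 -0.91 ± 0.06, adjusted p = 2.3e-10). In gs1_C8 it stood at 257, 277 and 262 CPM, above every parental library (log2 0.32, adjusted p = 0.00013), so gs1_B4 lay below gs1_C8 by 1.23 on the log2 scale (adjusted p = 1e-12). Ptk2, which encodes focal adhesion kinase and lies just beyond the bins, fell to 125, 126 and 133 CPM in gs1_B4, against 234, 223 and 226 CPM in parental cells (log2 -0.83 ± 0.03, adjusted p = 2.5e-13). Counted from Dscc1 to Ptk2 (55076099 to 73423280), ends also set after the values were seen, 46 of 59 genes fell, 2 rose and 11 did not pass. Other members of this run, named after their values were seen, were Derl1, a channel component of protein export from the endoplasmic reticulum (log2 -1.09 ± 0.04), Atad2, a chromatin ATPase (-1.29 ± 0.06), the long noncoding RNA Pvt1 (-1.22 ± 0.10), Asap1, an Arf GTPase-activating protein (-1.42 ± 0.07), and Ago2, the slicer of RNA interference (-1.09 ± 0.08). The 2 that rose, likewise, were Fer1l6 (log2 2.11) and the pseudokinase gene Trib1 (0.56).

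A second, shorter run reached from Kctd17 to Tomm22 (78428564 to 79673400). It held 33 tested genes, of which 23 fell and 4 rose, with a median of -1.03 in gs1_B4 and -0.09 in gs1_C8. Its ends were likewise set after the values were seen, so these counts and medians are a description. Eif3l, a translation initiation factor subunit, fell to 222, 217 and 211 CPM in gs1_B4, against 537, 544 and 551 CPM in parental cells (log2 -1.33 ± 0.03, adjusted p = 5e-16). Tomm22, the central receptor for protein import into mitochondria, fell to 148, 139 and 119 CPM in gs1_B4, against 284, 294 and 294 CPM in parental cells (log2 -1.10 ± 0.06, adjusted p = 1.2e-11). These 2 genes were also named after their values were seen. The 3 libraries of gs1_B4 were below all parental libraries for both, as for 28.3% of all genes tested.

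**Figure D2:**
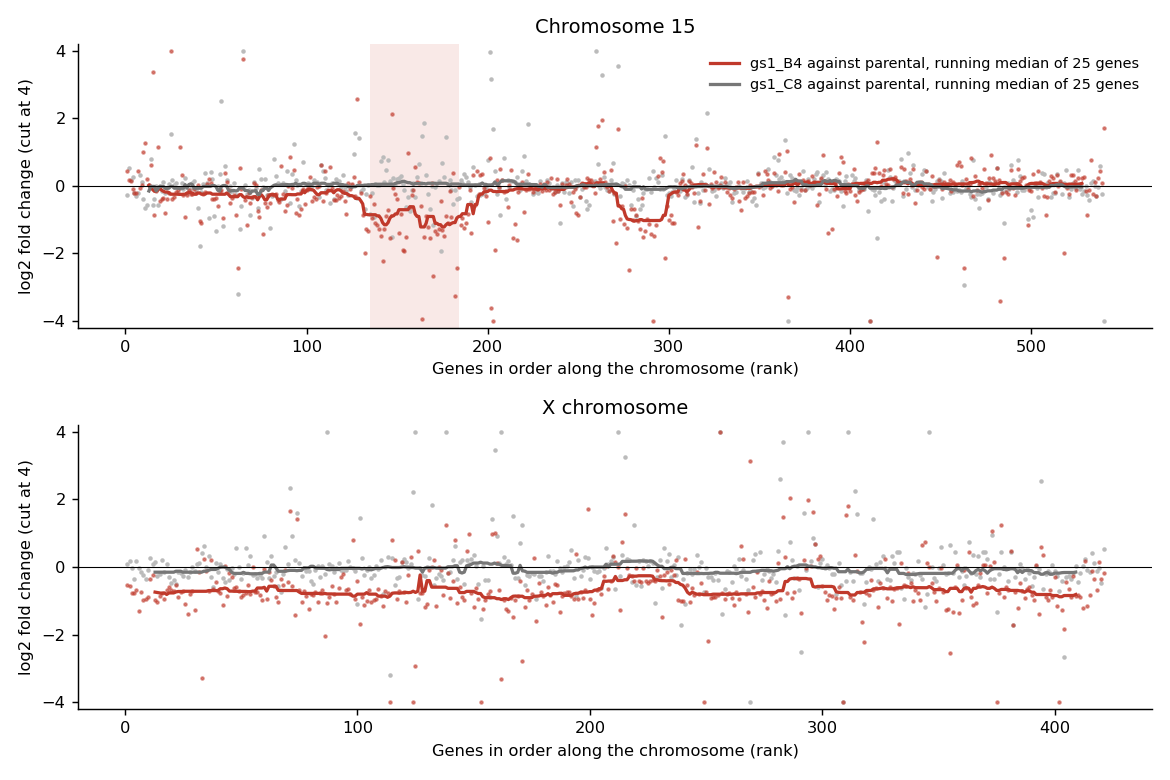
Log2 fold change of each gene (points, cut at 4 and -4) and running median of 25 genes (lines) for gs1_B4 and gs1_C8 against the same parental libraries, with genes in order along chromosome 15 (top) and X (bottom). The shaded genes lie between 56 and 72 Mb, where the median was -0.94 in gs1_B4 and 0.05 in gs1_C8, and the X chromosome is low along its length in gs1_B4.

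Gene groups were then read against the background of 20.9% higher and 26.8% lower. Of 19 tested fission genes 4 rose and 6 fell, and of 19 fusion and cristae genes 3 rose and 9 fell. Of 35 lists with at least 5 tested members, 14 had more than 50% of members called in 1 direction, 5 of them higher and 9 lower. That count was 9 without gs1_B4 replicate 1, without gs1_B4 replicate 2 or without parental replicate 3.

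**Figure D3:**
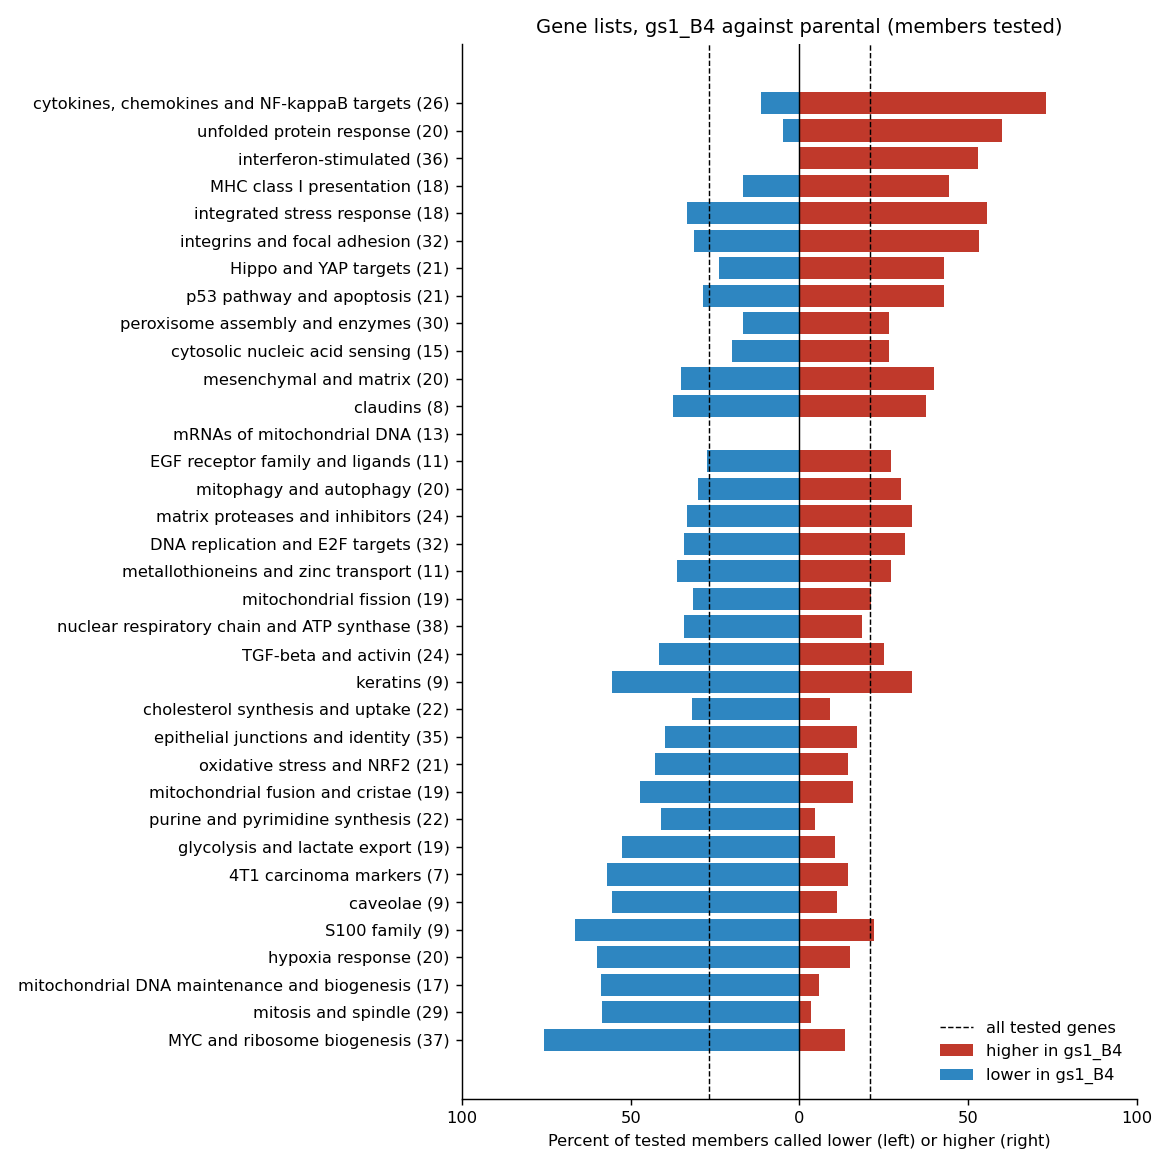
Percent of the tested members of each gene list (rows, number tested in brackets) called higher (right) or lower (left) in gs1_B4 against parental cells, with dashed lines at 20.9% and 26.8% for all tested genes. The share higher was 73.1% for cytokines and NF-kappaB targets, 60% for the unfolded protein response and 52.8% for interferon-stimulated genes, and the share lower was 75.7% for MYC and ribosome biogenesis.

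The unfolded protein response, the program that raises chaperones and folding enzymes of the endoplasmic reticulum, was higher. Of 20 tested members 12 rose and 1 fell, and the list's median stood at 0.37 in gs1_B4 and -0.08 in gs1_C8 on the log2 scale. Pdia6, a protein disulfide isomerase, rose to 424, 471 and 455 CPM in gs1_B4, against 248, 259 and 292 CPM in parental cells (log2 0.76 ± 0.05, adjusted p = 6.2e-10). Creld2, an isomerase-like protein secreted under stress, stood at 50.3, 50.8 and 52.7 CPM in gs1_B4 and at 26.4, 29.9 and 29.2 CPM in parental cells (log2 0.85 ± 0.07, adjusted p = 2.6e-09). Manf, a stress-induced trophic factor kept in the endoplasmic reticulum, stood at 237, 255 and 245 CPM in gs1_B4 and at 129.5, 143 and 154 CPM in parental cells (log2 0.79 ± 0.06, adjusted p = 3.9e-09). The folding enzyme Pdia3 rose by 0.56 ± 0.04. These 4 were named by smallest p, and each lay above all parental libraries, as 23.3% of all genes tested did. Each was higher in gs1_B4 than in gs1_C8, by 1.01, 0.99, 0.89 and 0.46 for Pdia6, Creld2, Manf and Pdia3 (adjusted p of 3.8e-12, 1.2e-10, 3.1e-10 and 8.7e-09). The exception was Hspa5 (BiP), the master chaperone that usually leads the response and the 1 member that fell, named here after its values were seen. It stood at 1592, 1862 and 1909 CPM in gs1_B4 and at 1863, 2139.9 and 2199 CPM in parental cells, with overlapping groups (log2 -0.21 ± 0.08, adjusted p = 0.047).

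The endoplasmic reticulum stress element, written as CCAAT, 9 bases of any kind and CCACG and searched on both strands, was found in 39 of 32851 RefSeq promoter windows (0.119%) that run from 250 bases before to 50 bases after the gene start in GRCm38.p6. Windows were matched for 18 of the 20 list members, and 8 of the 18 held the element: 3 of 11 called higher, the 1 called lower and 4 of 6 not called. The promoters of Pdia6 and Creld2, which rose, and of Hspa5, which fell, are shown with the element in capitals, 5′ to 3′ on the gene's own strand, so that a match can be seen in genes that moved differently. In Pdia6 and Hspa5 the match reads as written, and in Creld2 it lies on the other strand, so its capitals are the reverse complement. A match says only that the letters are present. Pdia6 lies on the + strand at chr12:17266339-17266638, Creld2 on the + strand at chr15:88819396-88819695 and Hspa5 on the + strand at chr2:34771840-34772139.
Pdia6: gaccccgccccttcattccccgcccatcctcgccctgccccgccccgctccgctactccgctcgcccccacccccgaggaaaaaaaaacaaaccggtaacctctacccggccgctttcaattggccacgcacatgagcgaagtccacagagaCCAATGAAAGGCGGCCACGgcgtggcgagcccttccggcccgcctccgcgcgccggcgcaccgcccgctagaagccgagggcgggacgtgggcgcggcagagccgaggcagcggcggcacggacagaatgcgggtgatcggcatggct
Creld2: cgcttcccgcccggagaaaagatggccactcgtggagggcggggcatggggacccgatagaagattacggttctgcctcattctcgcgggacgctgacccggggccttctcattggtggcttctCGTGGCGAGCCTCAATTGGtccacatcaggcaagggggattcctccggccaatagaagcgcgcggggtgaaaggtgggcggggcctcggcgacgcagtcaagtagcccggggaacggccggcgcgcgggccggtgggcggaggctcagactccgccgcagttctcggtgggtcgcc
Hspa5: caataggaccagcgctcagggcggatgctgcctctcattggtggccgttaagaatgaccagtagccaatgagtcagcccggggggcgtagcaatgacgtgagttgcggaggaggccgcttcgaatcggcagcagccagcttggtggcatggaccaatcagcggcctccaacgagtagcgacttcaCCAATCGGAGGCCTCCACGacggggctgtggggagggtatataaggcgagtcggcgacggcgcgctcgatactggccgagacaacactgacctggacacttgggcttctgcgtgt

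The integrated stress response, in which ATF4 and CHOP raise amino acid and stress genes, was split. Of 18 tested members 10 rose and 6 fell, with a median of 0.28 in gs1_B4 and -0.05 in gs1_C8. Ddit3, which encodes CHOP, rose to 9.92, 9.90 and 9.17 CPM in gs1_B4, against 2.93, 3.45 and 4.37 CPM in parental cells (log2 1.43 ± 0.17, adjusted p = 6.3e-07). Atf5, a related transcription factor linked to mitochondrial stress, stood at 16.8, 17.7 and 22.6 CPM in gs1_B4 and at 11, 9.14 and 11.2 CPM in parental cells (log2 0.87 ± 0.12, adjusted p = 6.1e-06). Of the 4 members named by smallest p, the other 2 fell. Slc7a5, an importer of large neutral amino acids, fell to 76.0, 74.9 and 79.4 CPM in gs1_B4, against 113, 123 and 102 CPM in parental cells (log2 -0.55 ± 0.07, adjusted p = 3.5e-06), and the proline synthesis enzyme Aldh18a1 fell by 0.48 ± 0.05 (adjusted p = 2.1e-07). Ddit3 and Atf5 were higher in gs1_B4 than in gs1_C8, by 1.09 (adjusted p = 8e-06) and 0.83 (adjusted p = 6e-06).

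**Figure D4:**
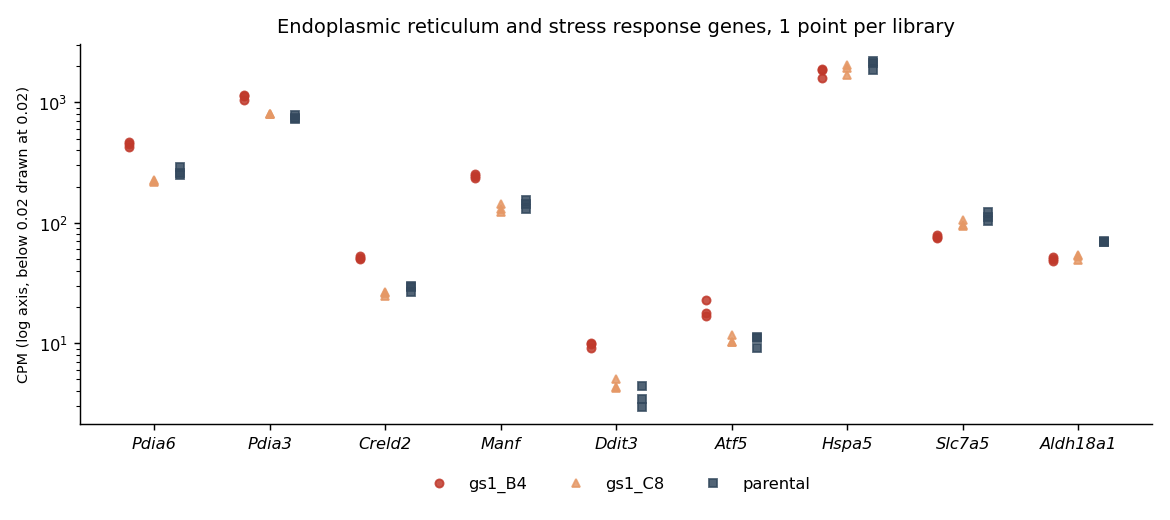
CPM on a log axis of 9 endoplasmic reticulum and stress response genes in each library of gs1_B4, gs1_C8 and parental cells (points). Pdia6, Pdia3, Creld2, Manf, Ddit3 and Atf5 are higher in gs1_B4 than in every parental library, Hspa5 overlaps, and Slc7a5 and Aldh18a1 are lower.

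More than 50% of the interferon-stimulated genes rose in gs1_B4, and 17 did not pass the test. Of 36 tested members 19 rose and 0 fell, and the list's median stood at 0.74 in gs1_B4 and 4.73 in gs1_C8 on the log2 scale, both against the same parental libraries. At an unadjusted p under 0.05 edgeR gave 20 higher and 0 lower, and DESeq2 called 19 higher and 0 lower after adjustment. The 36 genes together summed to 439 to 501 CPM in gs1_B4 and 343 to 383 CPM in parental cells. Ifih1, the double-stranded RNA sensor MDA5, rose to 61.4, 67.7 and 67.9 CPM in gs1_B4, against 38.5, 33.9 and 37.6 CPM in parental cells (log2 0.84 ± 0.09, adjusted p = 3.1e-07). Trim30a, a regulator of innate signalling, stood at 2.52, 2.75 and 2.48 CPM in gs1_B4 and at 0.433, 0.241 and 0.276 CPM in parental cells (log2 3.03 ± 0.38, adjusted p = 1.5e-06). Ifit1, a sensor of foreign RNA caps, stood at 7.83, 8.27 and 6.14 CPM in gs1_B4, at 131, 73.6 and 89.4 CPM in gs1_C8, and at 2.79, 1.60 and 2.72 CPM in parental cells. In the direct comparison Ifih1, Trim30a and Ifit1 were lower in gs1_B4 than in gs1_C8, by log2 differences of -1.53, -4.08 and -3.73 (adjusted p of 1.3e-11, 4.1e-12 and 6.8e-13). Among cytosolic nucleic acid sensors and adaptors 4 of 15 rose and 3 fell, the DNA sensor Cgas among those that fell (log2 -0.32).

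A core of the interferon response element, GAAA, 2 bases of any kind and GAAA on either strand, was found in 1131 promoter windows (3.44%). Windows were matched for 27 of the 36 interferon list members, and 16 held it: 11 of 17 called higher and 5 of 10 not called. The promoters of Ifit1 (+ strand, chr19:34640639-34640938) and Trim30a (- strand, chr7:104465144-104465443), which rose by 1.66 and 3.03, are shown with the core in capitals. The 2 matches in Ifit1 and the 1 in Trim30a lie on the other strand, so their capitals are the reverse complement.
Ifit1: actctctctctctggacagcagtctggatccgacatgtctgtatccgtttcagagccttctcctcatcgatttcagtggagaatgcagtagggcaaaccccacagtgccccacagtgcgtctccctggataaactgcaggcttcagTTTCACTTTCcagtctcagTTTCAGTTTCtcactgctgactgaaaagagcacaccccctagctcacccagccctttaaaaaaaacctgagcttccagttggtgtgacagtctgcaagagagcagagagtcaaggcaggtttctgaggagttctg
Trim30a: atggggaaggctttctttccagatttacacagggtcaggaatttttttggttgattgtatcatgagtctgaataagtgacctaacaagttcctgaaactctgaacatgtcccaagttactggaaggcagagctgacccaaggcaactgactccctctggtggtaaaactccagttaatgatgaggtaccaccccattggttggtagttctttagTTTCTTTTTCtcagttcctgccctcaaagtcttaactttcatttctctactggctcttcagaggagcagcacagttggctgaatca

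Antigen presentation rose in part. Of 18 tested members of MHC class I presentation 8 rose and 3 fell (median 0.12 in gs1_B4, 0.92 in gs1_C8). In the direct comparison 11 of the 18 were lower in gs1_B4 than in gs1_C8 and 5 higher. H2-K1 rose to 70.7, 67.6 and 64.4 CPM in gs1_B4, against 40.3, 40.2 and 42.2 CPM in parental cells (log2 0.72 ± 0.08, adjusted p = 3e-07), and H2-D1 rose by 0.63 ± 0.07 (adjusted p = 2.4e-07). Neither was shown to differ from gs1_C8 (-0.09, adjusted p = 0.36 and -0.13, adjusted p = 0.11). The nonclassical gene H2-M3, which presents formylated peptides, stood at 16.1, 16.3 and 15.8 CPM in gs1_B4 and at 8.08, 7.70 and 9.12 CPM in parental cells (log2 0.95 ± 0.10, adjusted p = 9.3e-08), and at 0.97 above gs1_C8 (adjusted p = 3.2e-08). H2 genes are related in sequence, so reads may have been divided among them in the estimated counts, to a degree that was not tested.

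Cytokines and NF-kappaB targets had the largest share of risers of any list drawn in the plot of lists. Of 26 tested members 19 rose and 3 fell, with a median of 0.63 in gs1_B4 and 0.45 in gs1_C8. The interleukin subunit Il23a rose to 74.7, 69.1 and 71.0 CPM in gs1_B4, against 35.9, 40.6 and 47.7 CPM in parental cells (log2 0.79 ± 0.08, adjusted p = 6.9e-08). The 3 that fell included Ccl2, the monocyte attractant, with 0, 0 and 0.073 CPM in gs1_B4, 41.3, 24.2 and 37.7 CPM in gs1_C8, and 3.61, 3.05 and 3.22 CPM in parental cells. With 2 counts over the 3 libraries of gs1_B4 and 221 in parental cells, the ratio of parental cells to gs1_B4 was 132 (95% counting interval 36.1 to 1100). The neutrophil attractant Cxcl3 fell to 5.51, 4.66 and 6.87 CPM in gs1_B4, against 19, 19.4 and 26.3 CPM in parental cells (log2 -1.93 ± 0.25, adjusted p = 2.7e-06). Tnfaip3 (A20), a brake on NF-kappaB signalling, fell by 0.73 ± 0.09 (adjusted p = 2.3e-06).

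Growth and division genes fell by small amounts. Of 37 tested genes of MYC and ribosome biogenesis 28 fell and 5 rose, with a median of -0.21 in gs1_B4 and -0.09 in gs1_C8. The list contains Myc, which lies in the lowered run of chromosome 15, and the X-linked Dkc1. Without its 1 X-linked member the median was still -0.21. Nolc1, a nucleolar scaffold, fell to 376, 363 and 367 CPM in gs1_B4, against 519.7, 503 and 511 CPM in parental cells (log2 -0.47 ± 0.03, adjusted p = 3.1e-10). The nucleolar helicase Ddx21 fell by 0.45 ± 0.04 (adjusted p = 9.5e-09). Whether the lower Myc level had a part in this was not tested.

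Of 29 tested mitosis and spindle genes 17 fell and 1 rose (median -0.18 in gs1_B4, -0.29 in gs1_C8). The spindle motor Kif11 fell to 186, 197 and 202 CPM in gs1_B4, against 281, 286 and 278 CPM in parental cells (log2 -0.53 ± 0.04, adjusted p = 2.5e-09), and cyclin A2 (Ccna2) fell by 0.31 ± 0.03. DNA replication genes were divided, with 10 of 32 higher and 11 lower. Mcm5, a subunit of the replicative helicase, fell by 0.42 ± 0.04, and the primase subunit Prim2 rose by 0.65 ± 0.06. In the p53 and apoptosis list 9 of 21 rose and 6 fell. The cell cycle inhibitor Cdkn1a (p21) rose to 33.3, 38.7 and 46.3 CPM in gs1_B4, against 11.8, 14.3 and 16.9 CPM in parental cells (log2 1.46 ± 0.18, adjusted p = 1.6e-06), and it stood 1.86 above gs1_C8 (adjusted p = 4.4e-08).

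Genes that maintain and express mitochondrial DNA fell, while transcripts of mitochondrial DNA did not pass edgeR's test. Of 17 tested maintenance and biogenesis genes 10 fell and 1 rose, with a median of -0.21 in both Mff clones. Twnk, the mitochondrial helicase, fell to 30.8, 33.3 and 33.6 CPM in gs1_B4, against 52.2, 52.1 and 47.7 CPM in parental cells (log2 -0.64 ± 0.05, adjusted p = 9.5e-09). The coactivator Pprc1 fell by 0.42 ± 0.06. Of the 13 mRNAs encoded in mitochondrial DNA 0 passed edgeR's test in either direction, 1 was higher and 1 lower at an unadjusted p under 0.05, and DESeq2 called 1 higher. The gene mt-Co3 had 63.2, 77.0 and 90.0 CPM in gs1_B4 and 100.3, 102 and 398 CPM in parental cells, so 1 parental library set its mean. Nuclear copies share reads with these genes, so their estimated counts are uncertain. Nuclear genes of the respiratory chain were 7 higher and 13 lower of 38, and 3 of the 4 named by the rule lie on chromosomes 1 or X. Sdhc (0.36) and Cox5b (0.49) on chromosome 1 rose, and Ndufa1 on X fell (-0.78).

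Metabolic lists leaned lower, and each held X-linked members that fell. Of 19 tested glycolysis genes 10 fell and 2 rose. Pgk1, the X-linked kinase that makes the first ATP of glycolysis, had 49.6% of its parental mean in gs1_B4 (log2 -1.01 ± 0.08, adjusted p = 3.6e-09), and a retrotransposed copy could share its reads. Pgam1, the next enzyme of the pathway, fell to 580.4, 590.3 and 593 CPM in gs1_B4, against 866, 901 and 976 CPM in parental cells (log2 -0.64 ± 0.06, adjusted p = 1.6e-08). The glucose transporter Slc2a1 rose by 0.63 ± 0.06. The median of glycolysis was -0.20 with and -0.18 without its X-linked member. Of 22 purine and pyrimidine genes 9 fell and 1 rose, among them the X-linked Prps2 (-1.15) and Prps1 (-0.93), which make the ribose donor of nucleotide synthesis. Of 22 cholesterol genes 7 fell and 2 rose, with Ebp (-1.38) and Nsdhl (-0.72) on X and Sqle (-0.62) in the lowered run of chromosome 15. That is 31.8% lower, against 26.8% over all genes, and without the 2 X-linked members 5 of 20 fell. In gs1_C8 all 22 fell against parental cells, with a median of -0.81 (-0.16 in gs1_B4). In the direct comparison 18 of the 22 were higher in gs1_B4 than in gs1_C8 and 2 lower. Among NRF2 and oxidative stress genes 9 of 21 fell and 3 rose. Its X-linked member G6pdx, which makes NADPH, fell by 0.94 ± 0.04 on the log2 scale, while catalase (Cat) rose by 0.44 ± 0.05.

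The hypoxia list was mostly lower. Of 20 tested members 12 fell and 3 rose (median -0.34 in gs1_B4, -0.23 in gs1_C8). Carbonic anhydrase Car9 fell to 0.0394, 0.217 and 0.0365 CPM in gs1_B4, against 6.35, 5.41 and 5.20 CPM in parental cells (log2 -5.76 ± 0.47, adjusted p = 4.8e-09). It was also near 0 in gs1_C8, at 0.221, 0.0363 and 0.133 CPM. Pdk1, which keeps pyruvate out of mitochondria, fell to 15.6, 15.7 and 17.8 CPM in gs1_B4, against 36.6, 30.9 and 36.9 CPM in parental cells (log2 -1.09 ± 0.09, adjusted p = 4.3e-09), and stood at 57.9, 57.3 and 56.1 CPM in gs1_C8. P4ha2, a collagen prolyl hydroxylase, rose by 1.72 ± 0.13 (adjusted p = 2.9e-09).

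Peroxisomes use Mff for their own division. Of 30 tested genes of peroxisome assembly and metabolism 8 rose and 5 fell, with a median of -0.05. Pex19, the import receptor for peroxisomal membrane proteins, rose to 43.1, 40.2 and 41.5 CPM in gs1_B4, against 30.9, 31.3 and 31.2 CPM in parental cells (log2 0.42 ± 0.05, adjusted p = 1.7e-06). Pex19 lies on chromosome 1. In the mitophagy and autophagy list 6 of 20 rose and 6 fell, Optn, an autophagy receptor, by 0.87 ± 0.10, and the X-linked mitophagy receptor Fundc1 by -0.89 ± 0.06.

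Mesenchymal and epithelial genes differed widely between gs1_B4 and gs1_C8, and both clones had moved from parental cells. The intermediate filament vimentin (Vim) rose to 633, 575 and 517 CPM in gs1_B4, against 244, 252 and 252 CPM in parental cells (log2 1.20 ± 0.07, adjusted p = 2.8e-11). It stood at 6.44, 8.20 and 8.17 CPM in gs1_C8 (log2 -5.04 against parental cells). The clones differed by 6.24 on the log2 scale (adjusted p = 2.3e-20), and most of that gap came from the fall in gs1_C8. The matrix glycoprotein tenascin C (Tnc) had 43.6, 47.8 and 42.6 CPM in gs1_B4, 3.83, 3.95 and 3.28 CPM in gs1_C8, and 10.3, 11.1 and 9.07 CPM in parental cells. Fibronectin (Fn1) averaged 1825 ± 121 CPM in gs1_B4, 346 ± 38 CPM in gs1_C8 and 898 ± 72 CPM in parental cells (SD, n = 3 each). Not all of the list rose: 8 of 20 tested members were higher and 7 lower, and periostin (Postn) fell to 0.472, 0.686 and 0.621 CPM in gs1_B4, against 5.87, 5.93 and 4.93 CPM in parental cells (log2 -3.22 ± 0.20, adjusted p = 1.4e-10). The median of the list was 0.15 in gs1_B4 and -0.82 in gs1_C8, where 2 members were higher and 11 lower than in parental cells.

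Of 35 epithelial junction and identity genes 14 fell and 6 rose in gs1_B4, while 4 fell and 21 rose in gs1_C8 (median -0.12 in gs1_B4, 0.30 in gs1_C8). E-cadherin (Cdh1) fell to 247, 243 and 247 CPM in gs1_B4, against 408, 386 and 339.8 CPM in parental cells (log2 -0.62 ± 0.08, adjusted p = 1.1e-06). The desmosomal plakophilin Pkp1 fell by 2.69 ± 0.10 and the epithelial splicing factor Esrp2 by 0.97 ± 0.05, while the junctional adhesion molecule F11r rose by 0.39 ± 0.05 (adjusted p = 9.2e-07) and the plakophilin Pkp2 by 0.42 ± 0.05 (adjusted p = 2.7e-07). Of 9 tested keratins 5 fell and 3 rose. Krt20 had 192 counts in gs1_B4 and 2 in parental cells, a ratio of gs1_B4 to parental cells of 80.5 (95% counting interval 22 to 669). Keratin 14 (Krt14), a basal keratin, fell to 9.80, 11.1 and 5.66 CPM in gs1_B4, against 67.5, 69.0 and 54.3 CPM in parental cells (log2 -2.85 ± 0.24, adjusted p = 9.5e-09), and stood at 107, 102 and 69.5 CPM in gs1_C8. The tight-junction gene Cldn3 had 0 counts in gs1_B4 and 1107 in parental cells, which is at least 440-fold lower when 3 counts are set as the group's floor. Cldn7 had 1 count in gs1_B4 and 866 in parental cells, a ratio of parental cells to gs1_B4 of 1030 (95% counting interval 185 to 40900). Both were also at or near 0 in gs1_C8, with 0 to 0.0363 CPM for Cldn3 and 0 CPM for Cldn7. Cldn12 rose by 0.51 ± 0.04.

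Integrin and adhesion genes moved in both directions, 17 of 32 higher and 10 lower. The integrin subunit Itgb3 rose to 6.06, 5.78 and 9.24 CPM in gs1_B4, against 0.577, 1.00 and 0.783 CPM in parental cells (log2 3.13 ± 0.22, adjusted p = 8.1e-10), and stood at 0.663, 1.12 and 0.666 CPM in gs1_C8. Fermt2, an integrin activator, stood at 135, 129 and 129.9 CPM in gs1_B4 and at 66.5, 71.1 and 69.8 CPM in parental cells (log2 0.92 ± 0.06, adjusted p = 1.4e-10). The leukocyte integrin subunit Itgb2 fell to 1.57, 2.10 and 1.46 CPM in gs1_B4, against 18.4, 14.3 and 17 CPM in parental cells (log2 -3.27 ± 0.14, adjusted p = 5.8e-13), and stood at 1.55, 1.56 and 1.64 CPM in gs1_C8.

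The largest increases among genes with at least 5 CPM in the higher group were spread over genes of several kinds. Mcpt8, a mast cell protease gene, rose to 53.1, 57.4 and 50.4 CPM in gs1_B4, against 4.52, 4.77 and 6.17 CPM in parental cells (log2 3.38 ± 0.10, adjusted p = 9.6e-16). Granzyme E (Gzme) stood at 8.19, 8.24 and 5.44 CPM in gs1_B4 and at 0.192, 0 and 0.368 CPM in parental cells, and its near-identical neighbours could share its reads. Both genes lie on chromosome 14, whose median was lower in gs1_B4. The signalling adaptor Samsn1 (log2 5.92 ± 0.33), the costimulatory receptor Cd40 (2.73 ± 0.28), P-selectin (Selp, 3.25 ± 0.19), the kinase anchor Akap12 (2.68 ± 0.13), the imprint-protecting zinc finger gene Zfp57 (2.84 ± 0.16) and the iron exporter Slc40a1 (2.48 ± 0.24) also rose. Selp was higher still in gs1_C8, at 37.5, 45.1 and 50 CPM, against 20.8, 18.9 and 27.1 CPM in gs1_B4 (gs1_B4 minus gs1_C8 -0.99, adjusted p = 4.4e-06).

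Several genes were at or near 0 in gs1_B4. Sulf2, which trims sulfate from heparan sulfate, had 0 counts in gs1_B4, 2527 in gs1_C8 and 342 in parental cells, at least 136-fold lower than in parental cells and at least 877-fold lower than in gs1_C8. Zfp518b, a zinc finger gene, had 3 counts in gs1_B4 and 712 in parental cells, a ratio of parental cells to gs1_B4 of 283 (95% counting interval 96.5 to 1380). The imprinted gene Mest had 2 counts in gs1_B4 and 469 in parental cells, a ratio of 280 (77.0 to 2320), and was also near 0 in gs1_C8 (0, 0 and 0.0444 CPM). Arhgdib, a GTPase inhibitor of blood cells, fell to 0.0394, 0.108 and 0.073 CPM in gs1_B4, against 27.2, 26.1 and 27.8 CPM in gs1_C8 and 5.53, 6.13 and 4.14 CPM in parental cells (log2 -6.06 ± 0.31 against parental cells, adjusted p = 5.9e-12). Olfm1 (-4.81 ± 0.13), the actin-binding scaffold Ppp1r9a (-5.07 ± 0.13), the X-linked mitochondrial carbonic anhydrase Car5b (-4.33 ± 0.14) and the water channel Aqp5 (-3.41 ± 0.19) fell as well. Ppp1r9a was near 0 in both Mff clones, while Susd1 fell in gs1_B4 (-4.19 ± 0.14) and stood at 18.4, 17.2 and 17.5 CPM in gs1_C8.

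Genes called in opposite directions in the 2 Mff clones, against the parental libraries both share, were ranked by the difference between the clones, and some from both ends are given here. The adhesion molecule Alcam had 85.7, 98.7 and 101 CPM in gs1_B4, 1.36, 1.81 and 2.17 CPM in gs1_C8, and 34.6, 37.2 and 33.2 CPM in parental cells, and the clones differed by 5.75 on the log2 scale (adjusted p = 1.3e-17). The metalloprotease Adam19 had 45.2, 46.0 and 49.5 CPM in gs1_B4, 1.25, 1.92 and 1.69 CPM in gs1_C8, and 23.8, 26.8 and 24.7 CPM in parental cells. Evi2a had 1043 counts in gs1_B4 and 1 in gs1_C8, a ratio of 1000 (95% counting interval 179 to 39600). In the other direction Psd4, an exchange factor for Arf6, had 1 count in gs1_B4, 734 in gs1_C8 and 38 in parental cells. Ppfibp2 had 0 counts in gs1_B4 and 543 in gs1_C8, at least 189-fold lower in gs1_B4, with 6 counts in parental cells. Against parental cells its floor gives only at least 2.39-fold lower in gs1_B4, so its opposite call rests on few counts. Intervals and floors cover counting error only.

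**Figure D5:**
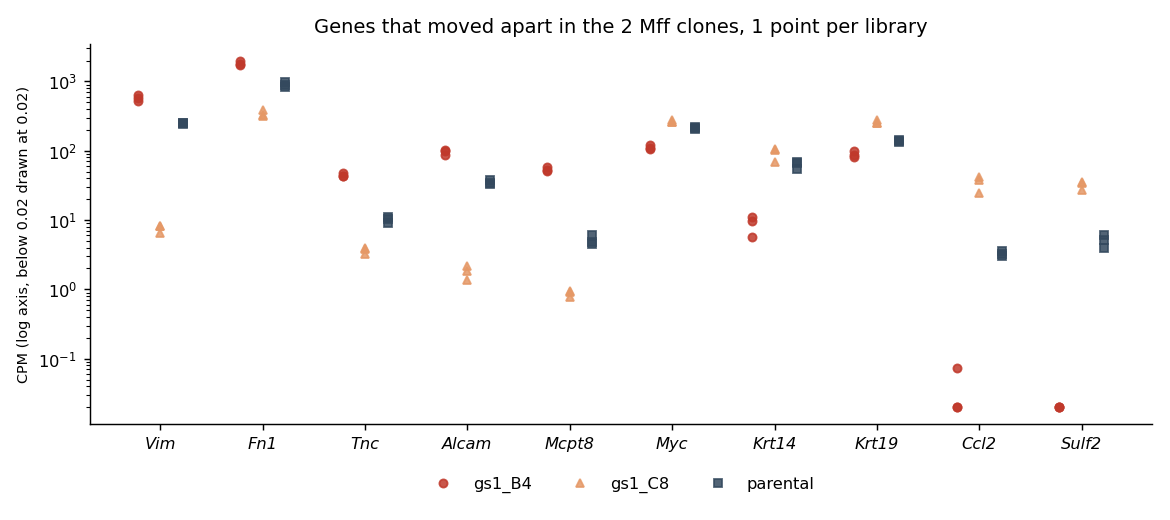
CPM on a log axis, with values below 0.02 drawn at 0.02, of 10 genes in each library of gs1_B4, gs1_C8 and parental cells (points). Vim, Fn1, Tnc, Alcam and Mcpt8 are highest in gs1_B4 and lowest in gs1_C8, and Myc, Krt14, Krt19, Ccl2 and Sulf2 are lowest in gs1_B4, with parental cells between the clones for each gene.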

How the data were processed

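RNA was sequenced from 27 libraries of 4T1 cells. Per the submitters' processing notes reads were trimmed with Trimmomatic 0.35 and quantified with RSEM on GRCm38 (mm10), and the authors deposited expected counts for 55401 genes per library. Clones were identified from column names, since the clone numbers in the labels could not be tied to the codes. Library totals were 20715428 to 26900488 counts in the 9 libraries compared.

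Expected counts were rounded to whole numbers. One edgeR 4.0.16 model (R 4.3.3) held 21 libraries, those of the parental cells and all 6 clones, with filterByExpr, TMM scaling and 1 coefficient per clone or parental set. Contrasts were tested two-sided by quasi-likelihood, and p-values were adjusted across every gene tested by Benjamini-Hochberg, with a threshold of 0.05. CPM used TMM-scaled library sizes. SEs of log2 fold changes were derived from the F statistics. Scripts were tested on simulated data. The members and gene lists were chosen with earlier results of these data known, so lists are described by counts and medians, with no set test. Named genes were the 15 largest called changes in each direction at 5 CPM or more in the higher group with groups that did not overlap, up to 4 members per list by smallest p, the fission and fusion genes, and the 8 largest differences between the Mff clones in each direction among genes of opposite sign. Alternatives were DESeq2 1.42.0, its size factors, no filter, other sample sets, a replicate block, a 1.5-fold minimum, ribosomal RNA or X genes left out, and each replicate left out. One named gene is not reported here.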

Additional observations from a re-analysis of the deposited data

Results flagged for a closer look

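The 44 named genes given here were called in opposite directions against parental cells in gs1_B4 and gs1_C8. The clones also differed in each by an edgeR test of the difference itself (adjusted p at most 1.6e-06, Mfn2). Genes called in opposite directions were bound to differ between the clones, so that test is no separate evidence. Named genes that differed between the clones without opposite calls, such as Susd1 (log2 -4.30, adjusted p = 3e-15), are left out. Values are log2 differences, gs1_B4 minus gs1_C8. Fitted values of genes with 0 to 3 counts in 1 clone depend on the prior count and are no bounds. For 3 genes a call against parental cells rests on few counts. In gs1_B4 these are Ppfibp2 (0 against 6 parental counts) and Zfp980 (0 against 12), and in gs1_C8 Gzme (2 against 12). Higher in gs1_B4 were Evi2a 9.50, Podnl1 7.91, Gzme 7.89, Vim 6.24, Mcpt8 5.94, Alcam 5.75, Spata6 5.39, Adam19 4.85, Cd40 4.82 and Spata13 4.46. Also higher were Tnc 3.59, Akap12 3.13, Fn1 2.40, Ccn1 1.83, Adam9 1.52, Fermt2 1.23, Nrg1 1.22, Pdia6 1.01, Hbegf 0.93 and Slc39a7 0.63. Lower in gs1_B4 were Sulf2 -12.67, Ppfibp2 -10.47, Ccl2 -10.17, Zfp980 -10.10, Xlr -9.36, Psd4 -9.09, Zfp518b -8.57, Arhgdib -8.41, S100a14 -5.15 and Mmp15 -4.85. Also lower were Xk -3.72, Krt14 -3.39, Btc -1.96, Pdk1 -1.80, Krt19 -1.54, Id1 -1.41, Erbb3 -1.32, Myc -1.23, Ptk2 -0.95 and Ajuba -0.73. Also lower were Krt80 -0.65, Pola1 -0.60, Cgas -0.48 and Mfn2 -0.44.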

How the results depend on the processing

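Counts of called genes against parental cells kept within 1.5 times of 6647 except with a 1.5-fold minimum, which left 1084 (490 higher, 594 lower), and against gs1_C8 it left 1771 (720 higher, 1051 lower). DESeq2 called 6298. Leaving out each replicate gave 5904 to 6413 against parental cells and 7032 to 7519 against gs1_C8. Lists with more than 50% of members called in 1 direction numbered 14, and 9 with DESeq2, 7 with no filter, 8 with only the groups compared, 0 with the 1.5-fold minimum, and 9 to 12 on leaving out a replicate. The chromosome 15 median between 56 and 72 Mb was -1.06 to -0.928 on leaving out a replicate. Mff ranged from -0.90 to -0.83 and the X median from -0.72 to -0.70. The sign of Mief1 reversed without gs1_B4 replicate 3 (-0.092) and without parental replicate 3 (-0.011), within a range of -0.092 to 0.109 over left-out replicates, and that of Dnm1l without gs1_B4 replicate 3 (range -0.0085 to 0.059). The cause was not tested. Of 167 called named genes, 164 kept their call under every setting but the 1.5-fold minimum. The exceptions were Fis1, Mfn2 and Pdgfra. With X genes left out of the fit, a setting added after the data were seen, the number of such lists was 12.

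Same-numbered libraries did not deviate together (correlations of -0.061, 0.058 and 0.016 between gs1_B4 and parental cells), so the numbers are not taken as pairs. With the replicate number as a block 7074 genes were called against parental cells (3124 higher, 3950 lower) and 7982 against gs1_C8, the number of lists stayed at 14, and Fis1 lost its call (adjusted p = 0.054).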

Other observations

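Of 9 tested calcium-binding S100 genes 6 fell and 2 rose in gs1_B4, and 6 fell and 2 rose in gs1_C8. S100a4, known for its link to metastasis, fell to 89.1, 83.4 and 55 CPM in gs1_B4, against 614, 580.3 and 723 CPM in parental cells (log2 -3.08 ± 0.13, adjusted p = 1.9e-13, edgeR quasi-likelihood test). Its log2 fold change in gs1_C8 was -3.30. S100a14 fell by 4.13 in gs1_B4 and had a log2 fold change of 1.02 in gs1_C8. Of 9 caveolae genes 5 fell and 1 rose, with Cav1, the main caveolar coat protein, among those that fell (log2 -2.49 in gs1_B4 and -3.69 in gs1_C8). Of 24 tested genes of TGF-beta and activin signalling 10 fell, 6 rose and 8 did not pass. Fstl3, an activin antagonist, rose by 0.81, and the Id genes, targets of bone morphogenetic protein signalling, fell, with log2 fold changes of -2.15 for Id2, -1.08 for Id3 and -0.94 for Id1.

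Matrix proteases were divided, 8 of 24 higher and 8 lower. The sheddase Adam9 rose to 390.2, 369.9 and 383 CPM in gs1_B4, against 174, 168 and 171 CPM in parental cells (log2 1.16, adjusted p = 1.3e-14), while Adam8 fell by 2.65. The YAP target Ccn1 rose by 1.00 in gs1_B4 and had a log2 fold change of -0.83 in gs1_C8. The metallothionein Mt2 rose to 39.0, 30.9 and 27.6 CPM in gs1_B4, against 9.23, 8.30 and 7.32 CPM in parental cells (log2 1.97).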
